A study of Cricetulus griseus with 20 samples.

Results

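Mvk, Idi1, Msmo1, Insig1 and Abca1 are 5 mRNAs of cholesterol synthesis, sensing and export. They were selected by name, as the rows of the mRNA table whose Ensembl ID carries one of these symbols in the supplementary gene lists of the study, and they make up 5 of 10318 listed mRNAs, of which 3858 have a symbol. Each symbol belonged to 1 ID. The measured values that chose them are the oxygen contrasts themselves, because the gene lists hold mainly mRNAs called between hypoxia and normoxia. Insig1 was listed at D0, D1 and D7, Idi1 and Mvk at D7 and Msmo1 at D11. Abca1 came from lists of adipose-related genes, which also held Mvk, and of lncRNA-mRNA pairs. Hypoxia against normoxia is therefore given for them as a description, with no test, and tests are given only for the normoxic steps between D0 and D7, and of those only where neither day is one on which the mRNA was listed. By the study's methods the lncRNA-mRNA pairs also rest on mRNAs called between hypoxia and normoxia. The days of that list were not used, so the step tests of Abca1 were not held to this rule. The study differentiated preadipocytes from the inguinal white adipose tissue (iWAT) of female Chinese hamsters aged 6 weeks, whose tissue was pooled before digestion, with the classic adipogenic cocktail. Hypoxia groups spent the last 24 h before collection in 1% O2, and normoxia groups spent them in conventional incubator air. Both were collected at D0 (confluent preadipocytes), D1, D3, D7 and D11 of differentiation, which gave 10 groups of 2 libraries each and 20 libraries in all. The labels name no genetic change in any group, and at each day the conditions differ only in oxygen by the study's methods. The question was how each stage of adipogenesis responds to low oxygen.

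Cholesterol is made from acetyl-CoA through mevalonate and isoprenoid diphosphates to squalene and then through a chain of sterols. When sterols in the endoplasmic reticulum are scarce, SCAP carries the SREBP transcription factors to the Golgi, where they are released and switch on the synthesis enzymes, and when sterols are plentiful INSIG proteins hold SCAP back. Excess cholesterol is instead sensed through oxysterols by the nuclear receptor LXR, a known activator of ABCA1, the transporter that hands cholesterol and phospholipid to apolipoprotein A-I. Adipocytes store much of their free cholesterol on lipid droplets.

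The values are TPM, a transcript abundance corrected for transcript length and library size, so levels of different mRNAs are compared per length. The D11 libraries stood apart. The listed mRNAs held 27.9% to 45.8% of all TPM over the 20 libraries. The listed lncRNAs held 8.46% and 12.2% in the D11 hypoxia libraries and 3.43% and 3.33% in the D11 normoxia libraries, against 0.972% to 1.81% in the 16 libraries of earlier days. The median difference between hypoxia and normoxia over all mRNAs was 0.52 on the log2(TPM + 1) scale at D11, whereas it lay between -0.19 and -0.05 on the other days. Of 8 textbook targets of the hypoxia-inducible factors, 8, 8, 8 and 7 were higher in both hypoxia libraries than in both normoxia libraries at D0, D1, D3 and D7. At D11 only Eno2 and Ankrd37 were, and 5 (Bnip3, Slc2a1, Gapdh, Pgk1 and Ldha) were lower in the libraries labelled hypoxia. These mRNAs thus go against the D11 labels in part, and every D11 direction rests on the labels as given. The 8 targets were picked after values had been seen, among mRNAs with a symbol. Their agreement with the labels from D0 to D7 is therefore in part built in and is no independent check. The share of all mRNAs without overlap was not counted. Adipocyte markers (6 of 10 had a symbol) summed to 506 and 460 TPM in D11 hypoxia and 468 and 568 TPM in D11 normoxia, against 162 to 182 TPM at D0, while Adipoq, Plin1, Cebpa and Cidec had no symbol. Within that sum Cd36, Lpl, Lipe and Pnpla2 were higher in both D11 hypoxia libraries than in both D11 normoxia libraries (means of 56.0 against 6.78 TPM for Cd36 and 21.8 against 7.35 TPM for Pnpla2), Pparg was lower (169.9 against 257.1 TPM) and Fabp4 overlapped. The 2 preadipocyte markers with a symbol, of 8, summed to 27.9 and 24 TPM in D11 hypoxia and 10.1 and 12.7 TPM in D11 normoxia. The same sum was 12.1 and 11.9 TPM in D0 hypoxia and 7.42 and 7.76 in D0 normoxia. At D7 it was 12.9 and 10.1 TPM in hypoxia and 20.9 and 23 in normoxia, so it was not highest in the undifferentiated cells. Most of it was Pdgfra (a mean of 24.1 TPM in D11 hypoxia, against 1.85 for Zfp521). None of 7 macrophage markers had a symbol, the single endothelial marker Pecam1 stayed at 9.03 TPM or below, and 2 of 5 epithelial markers summed to 14.3 TPM at most. The part of these markers in the D11 results was not tested. In bulk RNA, fewer cells of a type and less RNA per cell cannot be told apart.

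**Figure D1:**
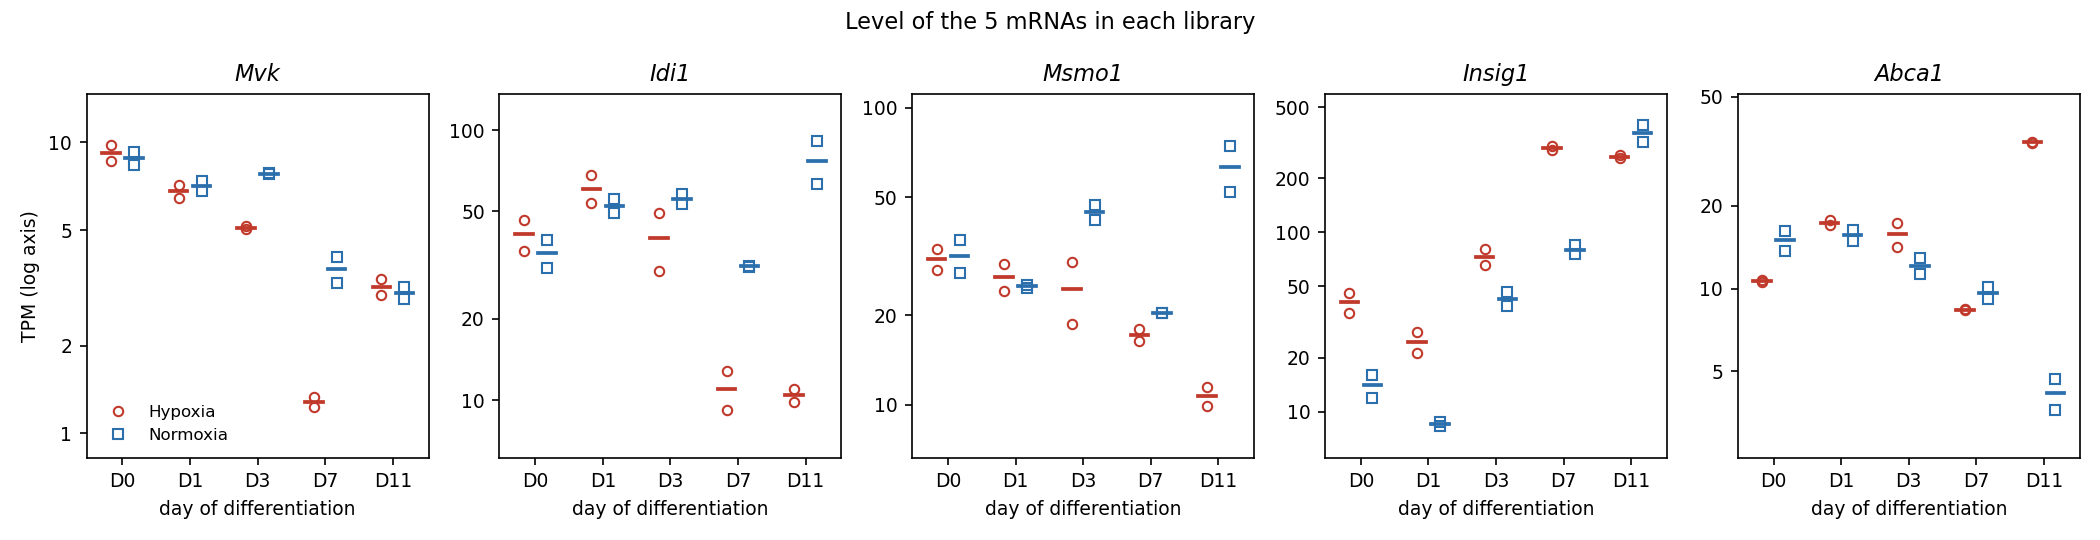
TPM (log axis, 1 scale per panel) of Mvk, Idi1, Msmo1, Insig1 and Abca1 by day of differentiation, with hypoxia as red circles and normoxia as blue squares (1 point per library) and the group mean as a bar. Idi1 and Msmo1 lie near 10 TPM in D11 hypoxia (means 10.4 and 10.7), against 77.2 and 63.3 in D11 normoxia, and Abca1 shows the opposite arrangement with 34.2 against 4.15.

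Mvk encodes mevalonate kinase, which phosphorylates mevalonate at the start of the isoprenoid branch. It had 9.82 and 8.64 TPM in D0 hypoxia, against 9.26 and 8.37 in D0 normoxia, and 6.46 and 7.12 TPM in D1 hypoxia, against 7.35 and 6.83 in D1 normoxia. At D3 the libraries no longer overlapped, with 5.15 and 5.03 TPM in hypoxia and 7.79 and 7.84 in normoxia. At D7 Mvk had 1.33 and 1.24 TPM in hypoxia, its lowest level, and 3.28 and 4.04 in normoxia, a mean of 1.28 against 3.66. At D11 the libraries overlapped again at 3.40 and 2.99 TPM in hypoxia and 3.19 and 2.90 in normoxia. Mvk was thus lower in hypoxia in both libraries on 2 of 5 days, by a log2 difference of -0.53 at D3 and -1.03 at D7 (SE 0.11 each), and its D11 difference of 0.05 lay 0.46 below the median of all mRNAs. At these low levels the size depended on the pseudocount, the D7 difference being -1.44 with a pseudocount of 0.1 and -0.46 with one of 5, and the D3 difference -0.34 with one of 5. Its mean was the lowest of the 5 mRNAs in all 10 groups, and the highest of its own group means was 9.23 TPM.

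Idi1 encodes isopentenyl-diphosphate isomerase, which makes the second building block of the isoprenoid chain. It had 46.4 and 35.8 TPM in D0 hypoxia, against 39.2 and 30.9 in D0 normoxia, and 53.6 and 68.0 TPM in D1 hypoxia, against 55.5 and 49.5 in D1 normoxia. The libraries of both conditions overlapped on these days. At D3 Idi1 had 30.1 and 49.5 TPM in hypoxia, below the 53.4 and 58.2 of normoxia, and the 2 hypoxia libraries differed by more than the gap between the conditions. At D7 it had 12.8 and 9.16 TPM in hypoxia and 31.5 and 31.1 in normoxia, and at D11 9.82 and 10.99 in hypoxia and 63.1 and 91.2 in normoxia. The log2 difference was -0.52, -1.45 and -2.76 at D3, D7 and D11 (SE 0.21), and the D11 mean was 7.42 times as high in normoxia. The D3 difference was -0.17 without the first hypoxia library and -0.87 without the second. Relative to the median of all mRNAs the D11 difference was -3.27. The hypoxia means of D7 and D11 were the lowest of the 10 groups (10.98 and 10.41 TPM) and their libraries overlapped, as did those of 7 of the 9 neighbouring pairs when the groups were ordered by mean.

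Msmo1 encodes methylsterol monooxygenase, which uses molecular oxygen to take methyl groups off the sterols made from lanosterol. It had 33.5 and 28.3 TPM in D0 hypoxia, against 35.8 and 27.9 in D0 normoxia, and 24.2 and 29.8 TPM in D1 hypoxia, against 25.4 and 24.7 in D1 normoxia, with overlap on both days. At D3 it had 18.8 and 30.3 TPM in hypoxia and 42.0 and 47.0 in normoxia. At D7 the conditions were close, at 18.0 and 16.4 TPM in hypoxia and 20.4 in both normoxia libraries. At D11 Msmo1 had 9.95 and 11.5 TPM in hypoxia, its lowest level, and 52.2 and 74.5 in normoxia, its highest, a ratio of means of 5.90. The log2 difference was -0.87 at D3, -0.24 at D7 and -2.44 at D11 (SE 0.19). The D7 value turned to 0.02 when each library was centred on its median, and was -0.11 after quantile normalization, while those of D3 and D11 were negative in every alternative tried. The D3 value was -0.54 without the first hypoxia library. Msmo1 and Idi1 differed at D7, where the Idi1 level was 0.711 and 0.560 times that of Msmo1 in the hypoxia libraries and 1.54 and 1.52 times in the normoxia libraries.

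Insig1 encodes an endoplasmic reticulum protein that retains SCAP and is itself a target of SREBP. It showed the widest range of the 5 mRNAs, with group means between 8.53 TPM in D1 normoxia and 357.9 TPM in D11 normoxia, a ratio of 42.0. Insig1 had 46.1 and 35.3 TPM in D0 hypoxia, against 16.05 and 11.96 in D0 normoxia, and 21.2 and 27.8 TPM in D1 hypoxia, against 8.77 and 8.28 in D1 normoxia. At D3 it had 65.6 and 80.6 TPM in hypoxia and 38.8 and 46.5 in normoxia. At D7 it had 289.5 and 303.5 TPM in hypoxia and 75.9 and 84.7 in normoxia, a mean 3.69 times as high in hypoxia. The 2 conditions did not overlap on any of these 4 days, and the log2 difference was 1.48, 1.41, 0.76 and 1.87 (SE 0.16). At D11 the order was the other way, with 258.8 and 271.1 TPM in the hypoxia libraries and 318.5 and 397.3 in the normoxia libraries, a log2 difference of -0.42 and of -0.94 relative to all mRNAs. The size of this D11 difference depended on scaling and on 1 library: it was -0.985 after median centring, -0.08 after quantile normalization and -0.265 without the second normoxia library. Only 2 of the 9 neighbouring pairs of groups overlapped when ordered by mean.

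Abca1 encodes the cholesterol exporter described above. It had 10.7 and 10.6 TPM in D0 hypoxia, against 13.7 and 16.3 in D0 normoxia, and 17.0 and 17.8 TPM in D1 hypoxia, against 16.3 and 14.9 in D1 normoxia. At D3 it had 17.4 and 14.2 TPM in hypoxia and 11.3 and 12.9 in normoxia, and at D7 8.45 and 8.32 in hypoxia and 9.17 and 10.1 in normoxia. The conditions were apart on each of these days, but the side changed, with Abca1 lower in hypoxia at D0 and D7 and higher at D1 and D3. At D11 Abca1 had 34.1 and 34.3 TPM in hypoxia, its highest level, and 3.62 and 4.67 in normoxia, its lowest, a mean 8.24 times as high in hypoxia. The log2 difference was -0.45, 0.15, 0.36 and -0.18 from D0 to D7 and 2.78 at D11 (SE 0.12). The D1 value was 0.09 without the second normoxia library and 0.25 after either median centring or quantile normalization, and the D3 value was 0.22 without the first hypoxia library. The D7 value was 0.08 after median centring, 0.04 after quantile normalization and -0.12 without the second normoxia library, and the D11 value was 2.27 relative to all mRNAs.

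**Figure D2:**
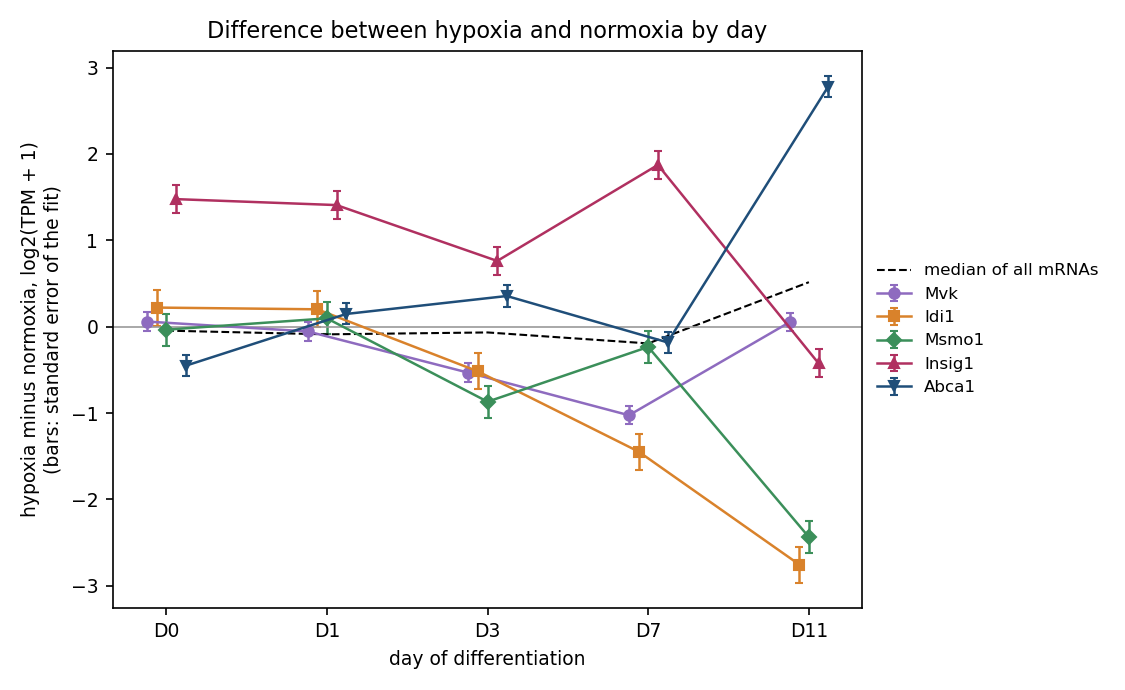
Hypoxia minus normoxia on the log2(TPM + 1) scale (vertical axis) by day of differentiation (horizontal axis) for the 5 mRNAs, with the standard error of the fit as bars and the median of all 10318 mRNAs as a dashed line. Insig1 lies above the dashed line from D0 to D7, and at D11 Abca1 (2.78) lies above it while Idi1 (-2.76), Msmo1 (-2.44), Insig1 (-0.42) and Mvk (0.05) lie below.

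Ratios of 2 mRNAs within a library do not depend on how that library was scaled. The level of Idi1 over that of Abca1 was 0.288 and 0.321 in the D11 hypoxia libraries, against 17.4 and 19.5 in the D11 normoxia libraries, and it lay between 1.10 and 4.72 in the 16 libraries of earlier days. The level of Msmo1 over that of Abca1 was 0.292 and 0.336 in D11 hypoxia and 14.4 and 15.9 in D11 normoxia. Both pairs thus had their lowest and their highest ratios on the same day. The level of Insig1 over that of Idi1 was higher in hypoxia than in normoxia on every day, with 0.993 and 0.987 against 0.409 and 0.387 at D0, 0.395 and 0.409 against 0.158 and 0.167 at D1, and 2.18 and 1.63 against 0.727 and 0.799 at D3. It was 22.6 and 33.1 in hypoxia against 2.41 and 2.73 in normoxia at D7, and 26.4 and 24.7 in hypoxia against 5.05 and 4.35 in normoxia at D11.

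**Figure D3:**
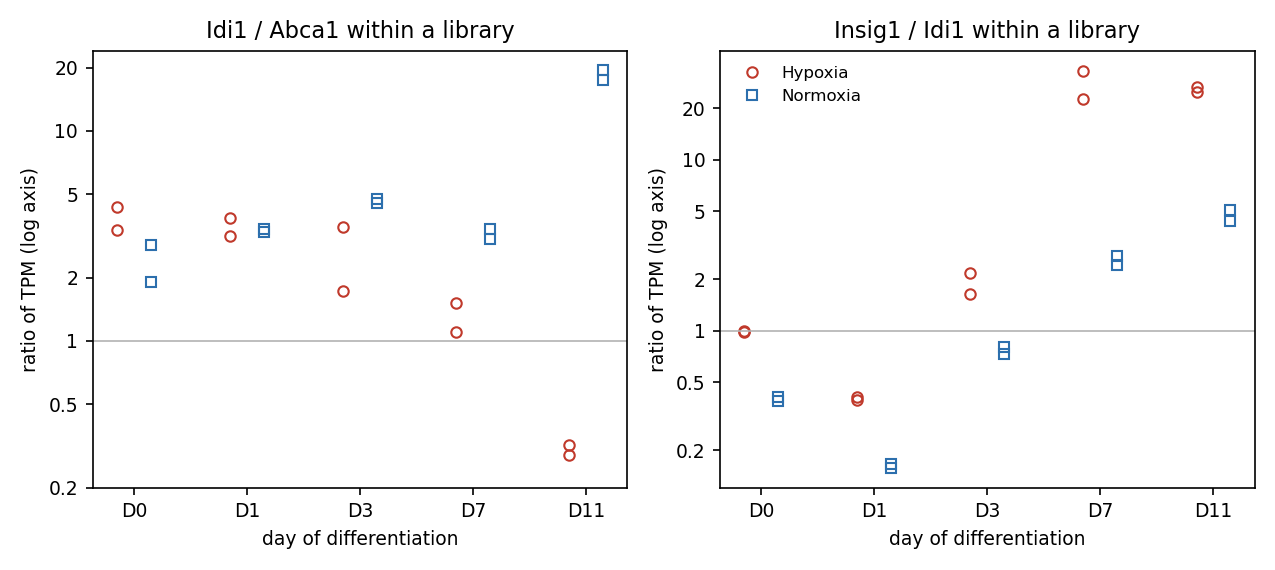
Ratio of TPM within each library (log axis) by day, for Idi1 over Abca1 (left) and Insig1 over Idi1 (right), with hypoxia as red circles and normoxia as blue squares. Idi1 over Abca1 is lowest in a D11 hypoxia library (0.288) and highest in a D11 normoxia library (19.5), and Insig1 over Idi1 is higher in hypoxia on all 5 days.

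The other genes of the pathway were taken from 4 lists of 51 genes in all, of which 24 had a symbol in the study's gene lists, 19 of them besides the 5 mRNAs above. Since those symbols come mainly from mRNAs the study called between hypoxia and normoxia in these same libraries, a high share of calls is built into them. The counts and the oxygen calls of single genes describe these genes without setting them apart from others, and are no independent test of them. A gene rose or fell when its Benjamini-Hochberg adjusted p in limma was under 0.05. At D0, 1 of the 19 rose and 0 fell (0 lower also at an unadjusted p under 0.05), where 3.39% of all mRNAs were called higher and 2.7% lower, and at D1 3 rose and 0 fell (0 lower at an unadjusted p under 0.05), where 7.36% were higher and 18.9% lower. At D3, 1 rose and 6 fell, beside 10.4% higher and 19.3% lower of all mRNAs, and at D7 2 rose and 8 fell, beside 9.97% higher and 39.2% lower. At D11, 9 rose and 8 fell, beside 63.3% higher and 13.2% lower of all mRNAs. Among the 3858 mRNAs with a symbol, from which the 19 come, 6.58% were called higher and 3.55% lower at D0, 11.5% higher and 19.2% lower at D1, 14.1% higher and 21.5% lower at D3, 11.4% higher and 47.5% lower at D7, and 71.5% higher and 12.7% lower at D11. The D3 count of falls was 1 without the first D3 hypoxia library and 2 without the second D3 normoxia library. The 3 rises at D1 came to 1 without the second D1 hypoxia library or without either D1 normoxia library. The 2 rises at D7 came to 1 without the second D7 normoxia library. The split of all calls depended on scaling. The share of called mRNAs that were higher was 28%, 34.9%, 20.3% and 82.7% at D1, D3, D7 and D11 with TPM as deposited, 50.8%, 54.8%, 57.5% and 45.6% after median centring, and 45.9%, 46.4%, 51.4% and 53.1% after quantile normalization.

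Among the 8 other synthesis enzymes, 6 fell, 1 rose and 1 did not pass at D11, with a median log2 difference of -1.04, against 0.52 for all mRNAs, and 13.2% of all mRNAs and 12.7% of those with a symbol were lower. Hsd17b7, a reductase of sterol ketones, had 3.21 and 3.38 TPM in D11 hypoxia, against 13.0 and 18.7 in D11 normoxia, and fell by 1.95 on the log2 scale. Fdps, which makes farnesyl diphosphate, had 38.5 and 38.9 TPM in D11 hypoxia, against 104.4 and 119.8 in D11 normoxia, and fell by 1.51. Neither gene overlapped between the conditions. Sc5d, a sterol desaturase, fell by 1.33, Cyp51, the lanosterol demethylase, by 1.13, the squalene synthase Fdft1 by 0.96 and the squalene epoxidase Sqle by 0.95. The exceptions were Tm7sf2, a sterol reductase that rose by 1.36 at a low level (2.81 and 2.80 TPM in D11 hypoxia, against 0.443 and 0.526 in D11 normoxia), and Dhcr7, at 0.24 with an adjusted p of 0.0576. The count of rises was 2 without the second D11 hypoxia library or without the second D11 normoxia library, and the count of 6 falls kept within 1.5 times under every alternative.

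Fewer of these 8 enzymes were called on earlier days, as was so of all mRNAs. At D3, 3 of the 8 fell (Fdps, Fdft1 and Sc5d) and 0 rose (0 higher at an unadjusted p under 0.05), with Sc5d lowest at a log2 difference of -0.69. On that day 19.3% of all mRNAs and 21.5% of those with a symbol were lower. The count of falls was 0 without the first D3 hypoxia library and 1 without the second D3 normoxia library. At D7, 4 fell (Fdps, Sqle, Tm7sf2 and Dhcr7), a share near the 47.5% of mRNAs with a symbol that were lower, and Hsd17b7 rose by 0.62, a call that was lost without the second D7 normoxia library. At D1, Sqle and Hsd17b7 rose by 0.47 and 0.45, where 7.36% of all mRNAs and 11.5% of those with a symbol were higher. At D0 0 of the 8 passed in limma, with 1 higher at an unadjusted p under 0.05.

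Of 5 sensing genes besides Insig1, 3 rose and 1 fell at D11, where 63.3% of all mRNAs and 71.5% of those with a symbol were higher, so the count of rises does not set them apart. Insig2, the second INSIG gene, rose by 1.33, 1.62, 1.17 and 0.58 at D0, D1, D3 and D7 and did not pass at D11, where it had 46.9 and 49.8 TPM in hypoxia and 45.3 and 58.0 in normoxia. It thus lay on the same side as Insig1 from D0 to D7, at a smaller difference than Insig1 at D0 and D7 and a larger one at D1 and D3, which was not tested. Nr1h3, which encodes LXR alpha, fell by 0.75 at D3 and by 1.21 at D7 and rose by 1.42 at D11, with 44.2 and 37.6 TPM in D11 hypoxia, against 14.6 and 14.7 in D11 normoxia. Srebf2, the SREBP gene tied to cholesterol synthesis, fell by 0.32 at D3 and 0.35 at D11. Srebf1, whose products drive mainly fatty acid synthesis, stayed at or below 1.28 TPM, fell at D3 and D7 and rose by 0.83 at D11. Erlin2, a cholesterol-binding protein of the endoplasmic reticulum, fell by 1.08 at D7 and rose by 0.87 at D11.

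Of 6 uptake, transport and export genes besides Abca1, 5 rose and 1 fell at D11, beside the same 63.3% and 71.5%, and this count does not set them apart either. Both other export genes rose: Abca7, a transporter related to Abca1, by 1.05, with 50.1 and 38.2 TPM in D11 hypoxia, against 19.9 and 21.4 in D11 normoxia, and Lcat, which esterifies cholesterol on lipoproteins, by 1.23. Npc1, which releases cholesterol from lysosomes, rose by 1.195, the sterol carrier Stard5 by 1.00 and the oxysterol-binding protein Osbp by 0.86. Stard4, another soluble sterol carrier, fell by 1.37 at D11. The median of all mRNAs at D11 was 0.52, so rises of this size are 0.34 to 0.72 above it for Osbp, Stard5, Abca7, Npc1 and Lcat.

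Of 5 fatty acid synthesis genes, 2 rose at D11 and 0 fell (0 lower at an unadjusted p under 0.05), beside 63.3% higher of all mRNAs and 71.5% of those with a symbol, and the list median of 0.25 lay below the 0.52 of all mRNAs. Fasn, the fatty acid synthase, rose by 1.17 at D11 after falls of 0.69, 1.10 and 0.96 at D1, D3 and D7. Acly, which makes cytosolic acetyl-CoA for both pathways, rose by 1.00, 0.83, 0.83 and 0.29 at D0, D1, D3 and D11, and relative to the median of all mRNAs its D11 value was -0.22. Scd1, a desaturase, rose by 1.03 at D1 and 0.39 at D3. The elongase ELOVL6 fell by 0.59, 0.80 and 1.21 at D1, D3 and D7, and Acaca, also of this list, fell by 0.39 at D1 and 0.65 at D3.

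**Figure D4:**
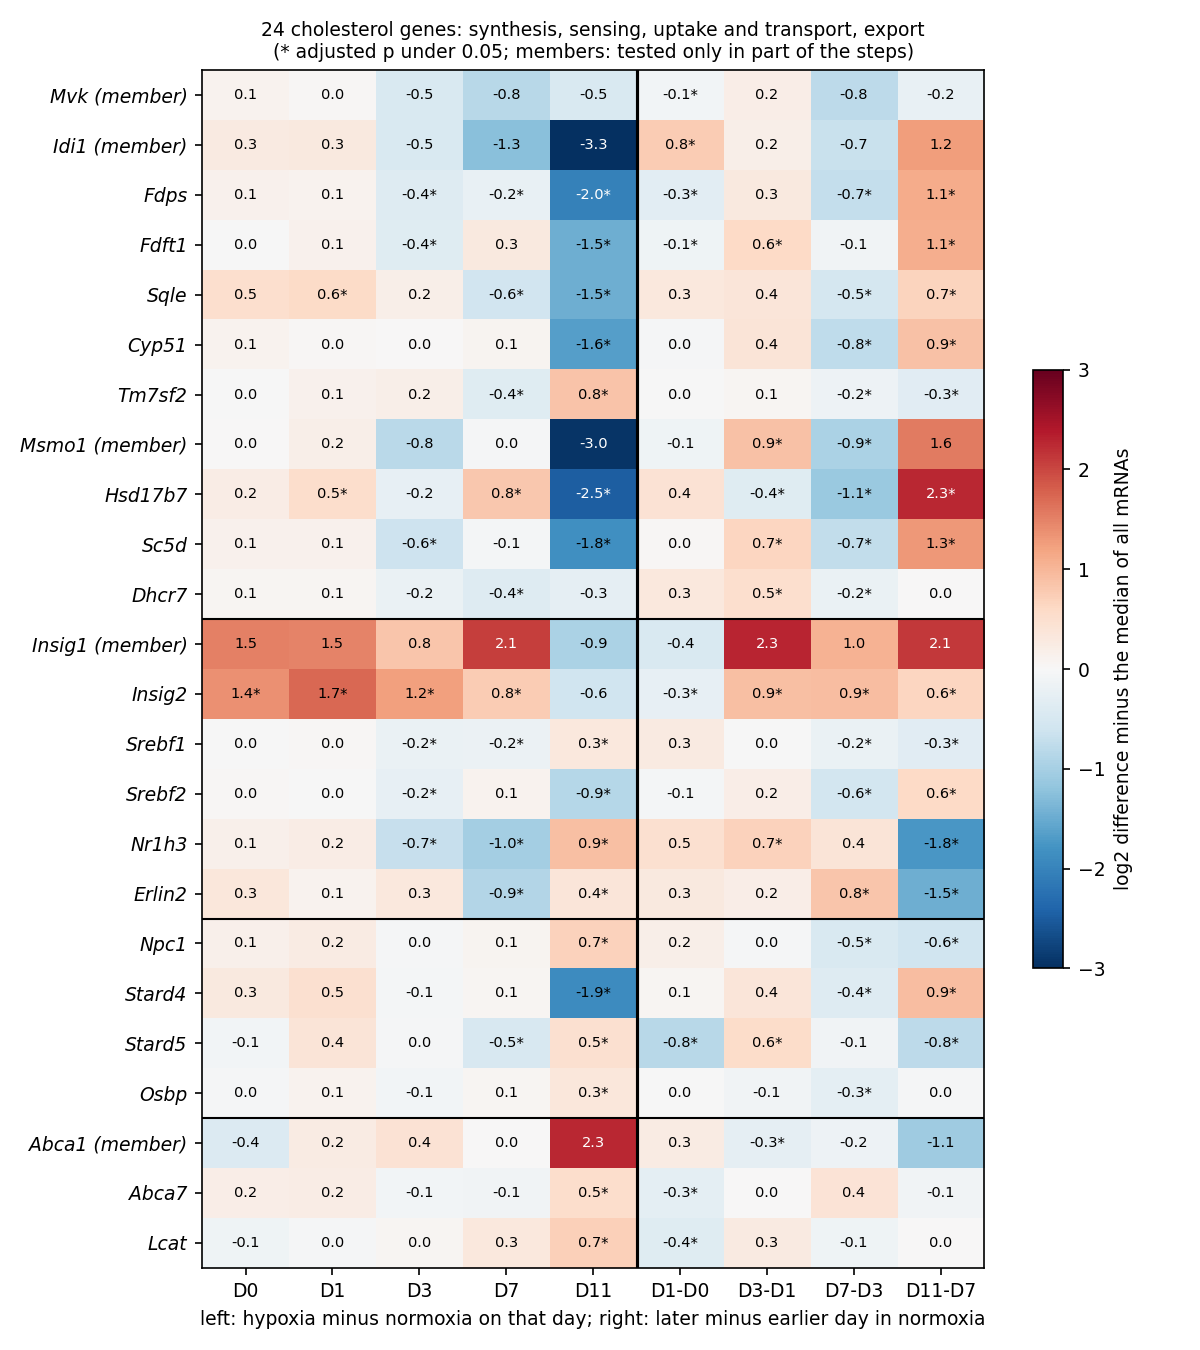
Log2 differences minus the median of all mRNAs (colour and printed value) for the 24 cholesterol genes with a symbol, in rows by list (synthesis, sensing, uptake and transport, export), for hypoxia minus normoxia at D0 to D11 (left) and for the later minus the earlier day in normoxia (right). Stars mark an adjusted p under 0.05 and are left out for the 5 selected mRNAs (marked member) where no test was made. At D11 the synthesis rows are blue, other than Tm7sf2, and the export rows are red. Mvk and Dhcr7 are blue there through the subtraction, their log2 differences being 0.05 and 0.24.

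Normoxic differentiation was a different contrast from the one that chose the 5 mRNAs, but it uses normoxia libraries that also entered the oxygen contrasts. Where an mRNA was listed by day as responsive to oxygen on either day of a step, its value is therefore given without a test, which applies to Insig1 in every step and to Idi1 and Mvk from D3 to D7. The list of pairs that holds Abca1 was not used for this, so its step tests may share libraries with its choice. The other list genes were not held to this rule either. Their step calls may share libraries with the lists that gave their symbols, and are no independent test. From D0 to D1, Idi1 rose by 0.58 (SE 0.21, limma adjusted p = 0.0312) and Mvk fell by 0.28 (SE 0.11, adjusted p = 0.0427), while Msmo1 at -0.32 and Abca1 at 0.06 did not pass (adjusted p = 0.166 and 0.715). Insig1 was lower at D1 by a log2 difference of -0.64 (SE 0.16). In that step 8.46% of all mRNAs were called higher and 34.8% lower. The rise of Idi1 was lost without the second D0 library (0.41, adjusted p = 0.225) and without the first or second D1 library (0.50 and 0.66, adjusted p = 0.154 and 0.0608), and the fall of Mvk without any 1 of the 4 libraries (adjusted p = 0.0609 to 0.246). After median centring Abca1 rose by 0.25 (adjusted p = 0.0321). For Idi1, Msmo1 and Mvk, median centring changed only the call of Mvk, whose adjusted p was then 0.470.

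From D1 to D3, Msmo1 rose by 0.80 (SE 0.19, limma adjusted p = 0.00353), a mean of 44.5 TPM at D3 against 25.1 at D1. Abca1 fell by 0.35 (SE 0.12, adjusted p = 0.044), a call lost without either D1 library or without the first D3 library (adjusted p = 0.0938 to 0.290). Idi1 and Mvk did not pass, at 0.09 and 0.12. Insig1 was higher at D3 by 2.19 (SE 0.16), a mean of 42.7 TPM at D3 against 8.53 at D1. Of all mRNAs, 10.8% were higher and 13.7% lower.

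From D3 to D7, Msmo1 fell by 1.09 (SE 0.19, limma adjusted p = 1.0e-04), a call that held under every alternative tried, and Abca1 at -0.30 did not pass (adjusted p = 0.0535), though it did without the first D3 library (adjusted p = 0.0473). The other 3 values have no test. Mvk and Idi1 were lower at D7, by log2 differences of -0.92 (SE 0.11) and -0.82 (SE 0.21), and that of Mvk was -0.57 with a pseudocount of 5. Insig1 was higher by 0.90 (SE 0.16), with 75.9 and 84.7 TPM at D7 and 38.8 and 46.5 at D3. Of all mRNAs, 12.7% were higher and 32.7% lower, and of those with a symbol 16.8% and 34%. Of the 8 other synthesis enzymes 7 fell and 0 rose (0 higher at an unadjusted p under 0.05), with a median of -0.77 against -0.14 for all mRNAs. Hsd17b7 had 2.99 and 2.01 TPM at D7 and 7.501 and 6.89 at D3 and fell by 1.24, and Cyp51 fell by 0.90, whereas Insig2 and Erlin2 rose by 0.79 and 0.69.

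From D7 to D11, the normoxia libraries of D11 that enter the D11 oxygen contrast are used again, so the values of the 5 mRNAs are given without a test. The calls of the other list genes in this step use the same libraries and are given as a description. Insig1 was higher at D11 by 2.14, Msmo1 by 1.57 and Idi1 by 1.25, and Abca1 and Mvk were lower, with log2 differences of -1.06 and -0.20. That of Mvk was -0.32 without the first D7 library and -0.08 without the second. None of the 5 overlapped between the days, but the share of all mRNAs without overlap was not counted, so this does not set them apart. Of all mRNAs 30.6% were called higher and 28.6% lower, and of those with a symbol 24.5% and 42.8%. Of the 8 other synthesis enzymes 6 rose and 1, Tm7sf2, fell, and that fall was lost without the second D7 library or without the first D11 library. Among the 19 other genes, the largest rises were those of Hsd17b7 (2.26) and Sc5d (1.32), and Nr1h3 and Erlin2 fell by 1.75 and 1.47. Idi1 and Msmo1 were thus at their highest group mean in D11 normoxia. The part of the D11 composition of the libraries in these values was not tested.

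Over all 19 other genes, the steps gave 0 rises (1 higher at an unadjusted p under 0.05) and 6 falls from D0 to D1, 6 rises and 1 fall from D1 to D3, 2 rises and 12 falls from D3 to D7, and 9 rises and 6 falls from D7 to D11. Among the 3858 mRNAs with a symbol, 10.6% were called higher and 34.6% lower from D0 to D1, and 14.3% and 15.1% from D1 to D3. The shares were 16.8% and 34% from D3 to D7, and 24.5% and 42.8% from D7 to D11. The falls from D0 to D1 are thus near the share among mRNAs with a symbol. The largest called falls from D0 to D1 were those of Stard5 (-1.02) and Lcat (-0.56), and from D1 to D3 Insig2 and Nr1h3 rose by 0.81 and 0.60. In the fatty acid list Acly rose by 2.24 and Fasn by 0.94 from D0 to D1 and fell by 1.63 and 1.01 from D1 to D3. The falls from D0 to D1 came to 3 without the second D1 library, and those from D3 to D7 to 7 without the second D3 library. From D1 to D3 the rises came to 3 without the second D3 library and the single fall, that of Hsd17b7, was lost without any 1 of the 4 libraries. With median centring, the share of called mRNAs that were higher was 49.8% from D0 to D1 and 56.2% from D3 to D7, against 19.6% and 28% with TPM as deposited, and after quantile normalization it was 46.2% and 48.5%.

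Patterns were compared as the root mean square difference in log2(TPM + 1) over the 10 group means, each mRNA centred on its own mean, among 2785 mRNAs with a symbol and at least 5 TPM in 1 group or more. This is a description, and the groups share libraries, days and depth. Sc5d (0.29) and Stard4 (0.32), both from the cholesterol lists, were among the mRNAs most like Msmo1. Those most like Idi1 were Esco2 (0.40), Pbk (0.46) and Spc25 (0.47), which act in chromosome cohesion and cell division, and Msmo1 came at rank 5 (0.49). Closest to Mvk were Cdca7l (0.14), Leo1 (0.18) and Wdr92 (0.18). Closest to Insig1 were AA467197 (0.41), Txnip (0.52) and Ankrd37 (0.60), and closest to Abca1 were Leng8 (0.28), Med13l (0.30) and Fbxw5 (0.31). By likeness to Idi1, Abca1 ranked 2513 of the 2785 and Insig1 2774. Insig1 ranked as low by likeness to Msmo1, Mvk and Abca1 (2770, 2775 and 2777). The measure is not scaled for range, and Insig1 varied most about its own mean (root mean square 1.73, against 0.64 to 0.89 for the others). Its rank is thus not particular to Idi1.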

How the data were processed

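RNA depleted of ribosomal RNA was sequenced from 20 libraries. Base calling used CASAVA 1.8.2 and alignment to the CriGri-PICR genome STAR 2.6.0c, and the authors obtained the deposited TPM with kallisto 0.44.0, listing mRNAs with TPM over 1 in both libraries of a group. Read counts of genes were not in hand, so the depth behind each TPM is unknown, no count interval is given and limma replaced the edgeR test of the study. The files' other table, TPM of 4295 lncRNAs, was used only for library shares.

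Log2(TPM + 1) was fitted in limma 3.58.1 (R 4.3.3, eBayes with trend, 1 mean per group, 20 libraries, 10 residual degrees of freedom), with Benjamini-Hochberg adjustment over 10318 mRNAs within a contrast. SE is the standard error of the fit. The fit was tested on simulated data for the normoxic step from D1 to D3 only, with no shift of whole libraries. The oxygen contrasts and the D11 differences in library composition were not covered by it. Tables and plots used Python 3.11.15, numpy 2.4.6, pandas 2.3.3 and matplotlib 3.10.9. A low TPM has its fold change understated by the pseudocount.

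Symbols came from the study's supplementary gene lists, matched to the lists used here without regard to letter case (ELOVL6 is spelt as there). The members and lists were chosen with earlier results of these data known. Named are the 5 members, genes of the 4 cholesterol lists and of fatty acid synthesis, among them in each contrast the 2 largest called rises and falls, the 3 mRNAs most like each member, and the markers and hypoxia targets of the label checks. A few genes that this rule or the lists would cover are not reported here and enter no count of list genes. The hypoxia targets were picked after values had been seen, and the tests of Insig1 in the normoxic steps, and of Idi1 and Mvk from D3 to D7, were dropped for sharing libraries with the choice of these mRNAs. The sources call the 2 libraries of a group biological replicates without saying whether they came from separate cultures, and p-values measure the spread between these libraries. Alternatives were pseudocounts of 0.1 and 5, a minimum of 5 TPM, median centring, quantile normalization, the replicate number as a block, a fit restricted to the 4 libraries compared and leaving out each library, and, added after seeing the data, a fit without D11. A planned motif search in promoters was not run, as no promoter sequence was used here.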

Additional observations from a re-analysis of the deposited data

Results flagged for a closer look

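For Insig1 and Abca1 the oxygen difference lay on opposite sides on neighbouring days, with no overlap between hypoxia and normoxia libraries on either day. The difference between the days was not tested in any of these cases. The share of all mRNAs that meet this rule was not counted, so the flag does not set Insig1 and Abca1 apart. For Insig1 the log2 difference between hypoxia and normoxia was lower at D11 than at D7 by 2.30 (-2.30), that is -0.42 at D11 and 1.87 at D7. The D11 value was between -0.985 and -0.08 under the alternatives tried, nearest to 0 after quantile normalization. For Abca1 it was higher at D1 than at D0 by 0.60, lower at D7 than at D3 (-0.54), and higher at D11 than at D7 by 2.96. The D1 difference of Abca1 was small, at 0.15 (SE 0.12). The D7 difference of Abca1 was near the median of all mRNAs (0.01 above it), so the changes that rest on D7 depend on the scaling of the libraries, whereas the D11 difference was between 2.10 and 3.02 under the alternatives tried. At D11, 5 of 8 hypoxia targets were lower in the libraries labelled hypoxia, and their part in these results was not tested.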

How the results depend on the processing

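Of 120 alternative values for the tested steps of the 5 mRNAs, 100 kept their call, 14 lost it and 6 gained it. Of 410 values without a test, 15 changed sign. In 3 of these, all at D7, the libraries of hypoxia and normoxia did not overlap: Msmo1 turned to 0.024 and Abca1 to 0.078 after median centring, and Abca1 to 0.039 after quantile normalization. The other 12 were differences with overlapping libraries, of Mvk at D0, D1 and D11 and of Msmo1 at D0 and D1. The D11 differences of Idi1, Msmo1 and Abca1 stayed between -3.32 and -2.40, between -2.998 and -2.10, and between 2.10 and 3.02, that of Insig1 between -0.985 and -0.08, and that of Mvk crossed 0 (-0.68 to 0.12). The fall of Mvk from D0 to D1 was also lost with a pseudocount of 0.1 and after quantile normalization (adjusted p = 0.0578 and 0.338), and that of Abca1 from D1 to D3 with a pseudocount of 0.1 (adjusted p = 0.0513). Abca1 gained calls from D0 to D1 after quantile normalization (0.28, adjusted p = 0.021), and from D3 to D7 with a minimum of 5 TPM and without the D11 libraries (adjusted p = 0.0485 and 0.039), the fit without D11 having been chosen after seeing the data. Msmo1 gained one from D0 to D1 in the fit of the 4 libraries compared (adjusted p = 0.0489).

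Of 328 counts of the other list genes, 281 kept within 1.5 times and 47 did not. After median centring, rises among the 19 genes numbered 3, 7, 2 and 4 at D0, D1, D3 and D7 and 5 and 4 in the steps D0 to D1 and D3 to D7, and falls 3 at D3 and 0 from D1 to D3. After quantile normalization, rises numbered 3, 6, 2 and 4 at D0, D1, D3 and D7 and 6, 10 and 4 in the first 3 steps, and falls 0 from D1 to D3. Rises among the 8 synthesis enzymes at D7 numbered 2 after either, and the fall from D7 to D11 was lost (0) after quantile normalization. With a minimum of 5 TPM, falls among the 19 numbered 4 at D7 and 3 from D7 to D11, those among the 8 numbered 2 at D7 and 0 from D7 to D11, and the rise at D11 was lost (0), fewer genes being tested. The fit of the 4 libraries compared gave 5 rises at D1 and 1 from D0 to D1, and the fit without the D11 libraries 2 rises at D0.

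Leaving out 1 library gave, among the 19, 1 to 3 rises at D1, 1 to 6 falls at D3, 1 to 2 rises and 6 to 8 falls at D7, 3 to 5 falls from D0 to D1, 3 to 6 rises and 0 falls from D1 to D3, 7 to 14 falls from D3 to D7 and 4 to 6 from D7 to D11. Among the 8 it gave 0 to 3 falls at D3, 0 to 1 rises and 3 to 4 falls at D7, 1 to 2 rises at D11 and 0 to 1 falls from D7 to D11. Deviations of same-numbered libraries correlated across genes at 0.15, -0.12, 0.08, 0.01 and 0.28 from D0 to D11. With 2 libraries per group and no reference for these values, they cannot tell whether the replicate numbers pair the libraries. With a replicate block none of these counts moved beyond 1.5 times, and no call of the 5 mRNAs changed.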
